A study of Homo sapiens with 9 samples.

Results

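Promoter regions bound by all 3 ARIDs are the places near annotated gene starts where ARID1A, ARID1B and ARID2 were each called as bound in HepG2, an established human liver cancer line. They were found by pooling the 3 ARID peak lists, joining peaks that shared at least 1 bp, and keeping joined regions that held a peak of every ARID and at least 1 peak whose deposited feature class was promoter. This left 1388 member regions of 25247 joined regions, or 9.50% (95% Wilson interval 9.04 to 9.99) of the 14609 joined regions that held a promoter peak. Members were chosen by the called ARID peaks, their overlap and their promoter class, so the presence of all 3 ARIDs, the nearness to a start and the number and extent of the peaks are given as a description, with no test. Chromatin of HepG2 cells, for which no treatment is named, was fixed with formaldehyde, digested with micrococcal nuclease and immunoprecipitated with 1 antibody per subunit, against ARID1A, ARID1B (both Santa Cruz), ARID2 or SNF5 (both Bethyl), in 2 replicates each from independent experiments, beside 1 input library. Both replicates were merged before peaks were called, so each subunit has 1 list. No value below therefore has a replicate error, and how deeply each list was sequenced is unknown here. The intervals and tests treat regions as the counted units, which are not replicates, and a difference between subunits cannot be told apart from one between their antibodies or sequencing depths. Binding data hold no expression values, so the liver label could not be checked on expression. Of a short list of 10 hepatocyte marker genes, all of them transcription factors, 8 had a promoter peak of at least 1 ARID and 3 had a member. Among all gene names with such a peak, 16.5% had one. The 3 (FOXA1, FOXA2 and CEBPB) lay on chromosomes 14 and 20, among 6 chromosomes described below where 27.5% of such names had a member. These counts are a description and do not check the label.

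SWI/SNF complexes use the energy of ATP to slide or remove nucleosomes, which opens promoters and enhancers to other factors. The ARID subunits define alternative forms of the complex. ARID1A and ARID1B exclude each other within the BAF form, ARID2 belongs to the PBAF form, and SNF5, also called SMARCB1, is a core subunit of both. Peaks were called on populations of cells, so they do not say whether different ARIDs occupied a region in the same cell or at the same time.

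The sequences below are the longest stretches that peaks of all 3 ARIDs covered together, so that DNA under shared calls can be read directly. They come from KLF6 and from the members with a shared stretch of 100 to 300 bp that lay under the highest SNF5 scores. KLF6 is shown in the study, and of its loci looked up here, which were not all of them, only KLF6 had a member. The length limit left out members with higher scores but shorter or longer stretches, the score ranks SNF5 peaks and not ARID calls, and KLF6, with a score of 30, was not chosen by it. They are given for the plus strand of hg19, 5′ to 3′. Bases in capitals match 1 of 14 short motifs searched on both strands, none of which contains another. Annotated UTRs were left out, which removed 29 bases of the 124-bp stretch at MED23 and the whole 173-bp stretch at RAB35.
KLF6, chr10:3827709-3827845: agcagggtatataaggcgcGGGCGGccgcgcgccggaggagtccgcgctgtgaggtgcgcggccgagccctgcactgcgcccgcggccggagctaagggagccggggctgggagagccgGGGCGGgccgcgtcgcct
MIR663A, chr20:26188831-26189092: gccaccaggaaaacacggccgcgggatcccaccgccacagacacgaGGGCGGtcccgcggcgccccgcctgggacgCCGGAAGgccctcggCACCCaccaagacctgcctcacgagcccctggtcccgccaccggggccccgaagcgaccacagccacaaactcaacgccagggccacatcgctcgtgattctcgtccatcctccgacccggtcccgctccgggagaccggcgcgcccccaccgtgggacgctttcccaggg
SLC39A3, chr19:2740171-2740306: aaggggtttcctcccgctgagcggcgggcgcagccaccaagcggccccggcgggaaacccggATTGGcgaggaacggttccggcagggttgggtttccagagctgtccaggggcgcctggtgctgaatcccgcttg
ANKRD30BL, chr2:133015229-133015338: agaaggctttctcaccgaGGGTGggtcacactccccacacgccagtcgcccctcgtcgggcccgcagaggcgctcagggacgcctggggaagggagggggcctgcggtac
RNU6-1, chr15:68132409-68132574: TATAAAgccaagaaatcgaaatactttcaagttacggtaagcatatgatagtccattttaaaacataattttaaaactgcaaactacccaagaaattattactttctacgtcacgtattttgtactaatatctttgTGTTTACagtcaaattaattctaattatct
MED23, chr6:131949383-131949477: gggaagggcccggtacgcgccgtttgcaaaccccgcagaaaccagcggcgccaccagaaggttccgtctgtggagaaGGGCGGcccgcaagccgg

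The printed KLF6 stretch had a GC content of 78.1%, held 22 CpG dinucleotides and 2 GC boxes (GGGCGG), and lay upstream of the annotated KLF6 start, where 20 of its bases fell in an exon of an unnamed noncoding gene on the opposite strand. KLF6 encodes a zinc finger transcription factor that binds GC-rich DNA. The stretch at MIR663A, a microRNA gene, had 31 CpG dinucleotides and 1 match each to the GC box, the ETS letters (CCGGAAG) and the CACCC box, and 237 of its 262 bases lay in exons of the microRNA host gene. The stretch at SLC39A3, which encodes a zinc transporter, lay outside annotated genes and held 1 CCAAT box. That at ANKRD30BL lay wholly in an annotated exon and held 1 CACCC box. The stretch assigned to RNU6-1, a U6 small nuclear RNA gene, stood apart with a GC content of 26.5% and 4 CpG dinucleotides. Its capitals mark a TATA box (TATAAA) and a FOXA match (TGTTTAC). The MED23 piece, from the promoter of a Mediator subunit gene, had a GC content of 69.5% and held 1 GC box. Among all 14609 promoter regions, a window of 300 bp at the region's middle held the GC box in 54.2%, the CACCC box in 64.2%, the CCAAT box in 27.1%, the ETS letters in 10.8%, the TATA box in 5.72% and the FOXA letters in 2.72%. A match is a description of letters and not a bound site.

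Member regions had a median width of 760 bp, with quartiles at 527 and 1139 bp and a range from 53 to 5453 bp. A total of 972 members, or 70.0%, held exactly 1 peak of each ARID, and 38 held more than 5 peaks. ARID1A covered the most DNA, with a median of 566 bp per member (quartiles 339 and 886 bp), against 425 bp for ARID2 (quartiles 238 and 716 bp) and 221 bp for ARID1B (quartiles 127 and 380 bp). ARID1A was the widest of the 3 in 818 members, ARID2 in 429 and ARID1B in 141, with 2 ties counted for the first of the tied subunits. The medians were taken separately for each ARID, and how many members held all 3 in this order of width was not counted. In 658 members (47.4%) every ARID1B peak lay inside an ARID1A peak, and in 457 (32.9%) every ARID1B peak lay inside an ARID2 peak, whereas the reverse nesting of ARID1A inside ARID1B held in 70 members (5.04%).

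Being joined into a region did not require that the ARIDs covered the same base. In 1081 members (77.9%) at least 1 base was covered by all 3, and the longest such stretch had a median of 129 bp (quartiles 58 and 228 bp). The shared stretch reached 300 bp in 164 members, 500 bp in 49 and 1000 bp in 5. In the other 307 members (22.1%) the ARIDs were linked only through a chain of overlapping peaks. Just outside the rule, 83 of the 2714 promoter regions with ARID1A and ARID2 only had an ARID1B peak within 100 bp, and 370 (13.6%) had one within 1000 bp. The member farthest from an annotated start, at the pseudogene CDC27P1, had its nearest peak 987 bp from that start, and the nearest of the 519 non-promoter regions with all 3 ARIDs, at NEK6, lay 1004 bp away. Most members were far from this limit, with a median distance of 29 bp, and 15 lay at 900 bp or more. All 3 ARIDs had a promoter peak in 1342 members (96.7%).

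**Figure D1:**
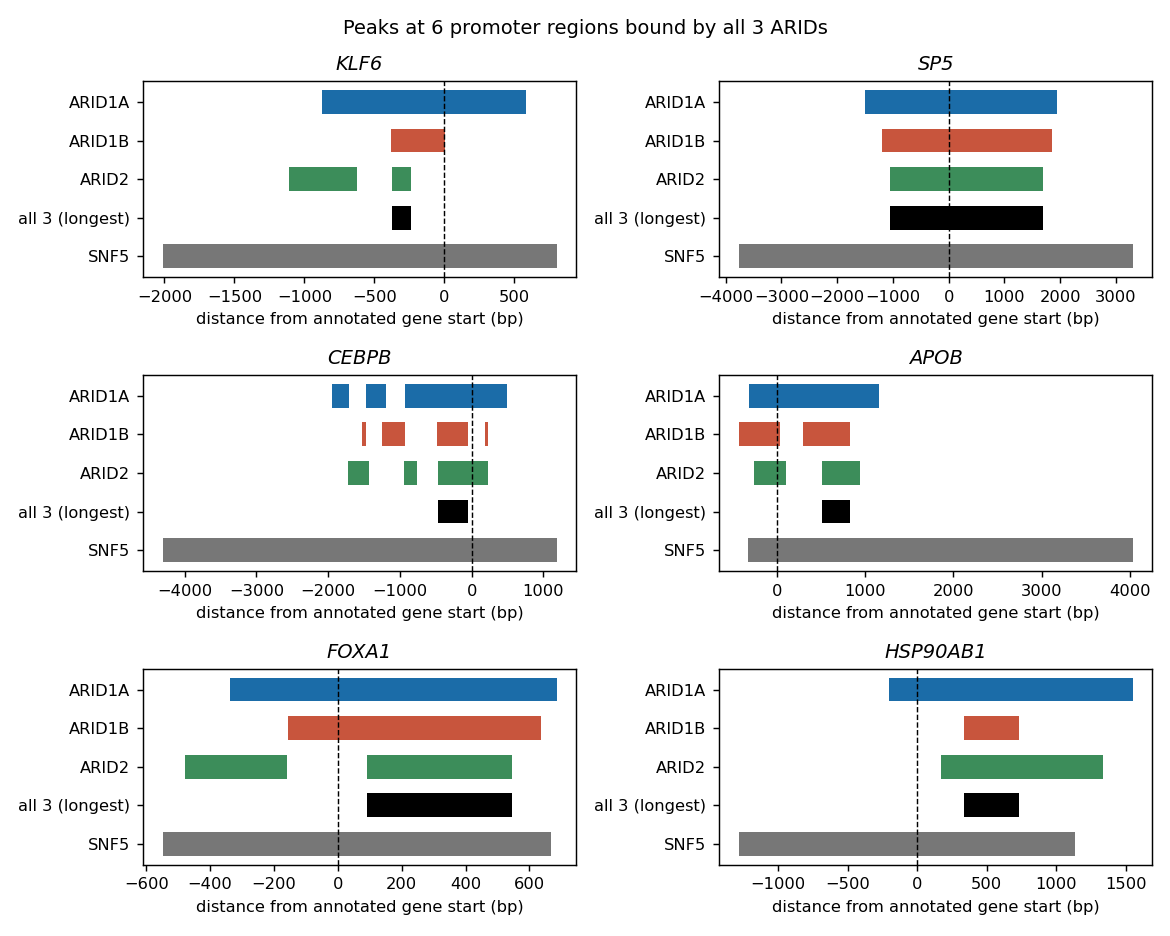
Peaks of ARID1A, ARID1B, ARID2 and SNF5 at 6 member regions, with the longest stretch covered by all 3 ARIDs in black. The horizontal axis is the distance in bp from the annotated gene start, positive into the gene. At SP5 the peaks coincided almost throughout, with a shared stretch of 2751 bp, whereas at KLF6 a short ARID2 peak set the shared stretch of 137 bp and a further ARID2 peak lay upstream.

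The KLF6 member (chr10:3826886-3828580) held 1 ARID1A peak of 1463 bp, 1 ARID1B peak of 387 bp and 2 ARID2 peaks that together covered 620 bp. The longest shared stretches were found at a small set of genes. SP5 (chr2:171570349-171573796), a zinc finger factor of the SP family and a known target of Wnt signalling, had the longest, 2751 bp, within a region of 3448 bp that ARID1A covered completely. The next were at the U1 small nuclear RNA gene RNU1-8 (1572 bp, chr14:35024355-35026462), ID1 (1436 bp), DCAF11 (1367 bp) and RNU1-7 (1190 bp). ID1 encodes an inhibitor of basic helix-loop-helix factors and is a direct target of BMP signalling, and its member (chr20:30191828-30197280) was also the widest of all, at 5453 bp with 8 peaks. After these came RNU1-4 (887 bp), ASXL1 (842 bp), which encodes a Polycomb-associated protein, PTP4A1 (812 bp), a phosphatase gene, RNU1-2 (763 bp) and the noncoding gene RP11-452L6.5 (760 bp). The members with the most peaks were at ZFP36L2 (10 peaks), which encodes a protein that destabilises AU-rich mRNAs, CEBPB (10 peaks), a liver-enriched bZIP factor, and MAN1A1 (9 peaks), a mannosidase of the Golgi. The CEBPB member thus split into 3 ARID1A, 4 ARID1B and 3 ARID2 peaks over 2435 bp, where SP5 had 1 long peak of each.

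The 3 ARIDs were centred on the annotated start and showed no fixed order along the transcribed strand. Starts here came from Gencode v44 and were not those behind the deposited distances. Such a start lay within 1000 bp of the region's middle in 1327 members (95.6%). The other members were kept, though their nearest start could be far off, at RNA5-8SP6 132860 bp away. With each member oriented by the nearest start of a protein-coding or lncRNA gene, the middle of the bases covered lay at a median of -8 bp for ARID1A (quartiles -136 and 112 bp), -26.5 bp for ARID1B (quartiles -200 and 139 bp) and -27.1 bp for ARID2 (lower quartile -170 bp), where negative is upstream. It lay within 500 bp of the start in 88.9%, 84.2% and 86.7% of members. ARID1B lay downstream of ARID1A in 655 of 1387 members with a difference, 47.2% (95% Wilson interval 44.6 to 49.9; adjusted p = 0.124, exact two-sided binomial test with Benjamini-Hochberg adjustment over the 3 pairs). ARID2 lay downstream of ARID1A, by the same exact test, in 48.3% (45.7 to 51.0; adjusted p = 0.271) and downstream of ARID1B in 51.5% (48.9 to 54.1; adjusted p = 0.271). No pair passed the test. Pairs did pass the exact test under some alternatives, with ARID1B downstream of ARID1A in 45.8% (adjusted p = 0.0202) among members with a base covered by all 3, and ARID2 downstream of ARID1A in 45.7% (adjusted p = 0.023) among members with 1 peak of each but in 53.0% (adjusted p = 0.016) when peaks up to 1000 bp apart were joined. That joining also gave ARID2 downstream of ARID1B in 55% (adjusted p = 6.6e-05, exact binomial test).

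**Figure D2:**
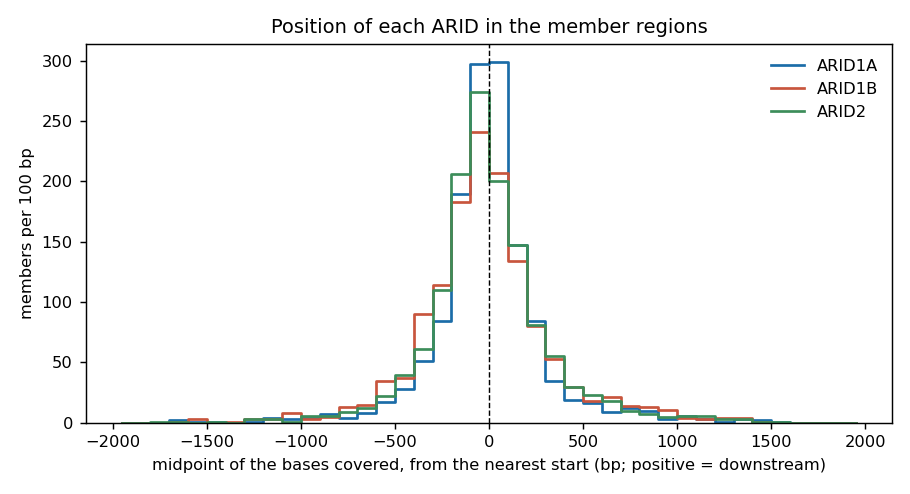
Number of members per 100 bp (vertical axis) by the distance in bp from the nearest annotated start to the middle of the bases each ARID covered (horizontal axis, positive downstream), with 1 line per ARID. All 3 lines peak at the start, and the medians lie between -27.1 and -8 bp.

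The deposited chromatin state of the peaks differed between the ARIDs inside the same members. The states are named chromatin labels that the authors attached to each peak, and their origin is not given in the sources used here. Active promoter was the state of 987 of the 1524 ARID1A peaks in members (64.8%), of 986 of 1663 ARID2 peaks (59.3%) and of 687 of 1579 ARID1B peaks (43.5%). The strong enhancer state 4 was given to 28.9% of the ARID1B peaks, 23.1% of those of ARID2 and 17.7% of those of ARID1A. This label does not place the peaks away from starts. The promoter class was given to 97.4% of the ARID1A, 97% of the ARID1B and 96.3% of the ARID2 peaks in members. In promoter regions with ARID1A and ARID2 only, active promoter was the state of 68.5% of ARID1A and 63.4% of ARID2 peaks, and strong enhancer state 4 that of 13.3% and 18.3%. The ARID1B shares can be set beside promoter regions with ARID1B alone, where 37.6% of its 1142 peaks were in the active promoter state and 28.6% in strong enhancer state 4. Taken per region, 1242 members (89.5%) had at least 1 peak in the active promoter state and 779 (56.1%) had at least 1 in a strong enhancer state, with both in 655 (47.2%). Because 1 region can span several states, they are given as a description and were not tested.

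SNF5, which the rule did not use, had a peak over 1346 of 1388 members (97.0%, 95% Wilson interval 95.9 to 97.8). The share was 87.7% (86.4 to 88.8) of the 2714 promoter regions with ARID1A and ARID2 only, 54.9% (53.9 to 55.9) of the 9877 promoter regions with 1 ARID, and 98.7% (97.2 to 99.3) of the 519 non-promoter regions with all 3. The remaining 630 promoter regions, with ARID1B and 1 other ARID, stood at 84% (80.9 to 86.6) and were not tested. Members thus carried SNF5 more often than both promoter classes tested, with odds ratios of 4.51 (95% interval 3.25 to 6.26; adjusted p = 5.53e-26, two-sided Fisher's exact test with Benjamini-Hochberg adjustment over 3 comparisons) and 26.3 (19.3 to 35.9; adjusted p = 8.44e-258). Against the non-promoter regions with all 3 ARIDs the share was lower by 1.68 percentage points (odds ratio 0.438, 0.196 to 0.982; adjusted p = 0.0494, Fisher's exact test). That difference did not pass within chromosomes (adjusted p = 0.0587, Mantel-Haenszel chi-square test). Region width moved with these shares: members were wider than the regions with ARID1A and ARID2 only (median 449 bp) and those with 1 ARID (median 163 bp), and within 5 strata of width the odds ratios fell to 2.14 (adjusted p = 1.32e-05) and 8 (adjusted p = 4.21e-50, Mantel-Haenszel chi-square test). Within the members, SNF5 overlap ran from 90.8% in the 347 narrowest (median width 413 bp) to 100% in the 347 widest (median 1434 bp).

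The SNF5 score, a whole number from the authors' peak caller that ranks peaks within that list, was also higher over members. Among members with an SNF5 peak the highest score had a median of 26 (quartiles 22 and 31), against 23 (19 and 27) in promoter regions with ARID1A and ARID2 only, 21 (18 and 25) in those with 1 ARID and 27 (23 and 33) in non-promoter regions with all 3. A score of 24 or more, the upper quartile of the SNF5 list, was reached by 871 of 1346 members (64.7%), by 43.9% of the regions with ARID1A and ARID2 only (odds ratio 2.34, 2.04 to 2.69; adjusted p = 3.01e-34, Fisher's exact test), by 32.2% of those with 1 ARID (odds ratio 3.86, 3.40 to 4.37; adjusted p = 2.6e-103) and by 73.8% of the non-promoter regions (odds ratio 0.65, 0.518 to 0.815; adjusted p = 0.000168). In promoter regions with ARID1B and 1 other ARID, which were not tested, the share was 41.8% (37.6 to 46). The order of the classes therefore placed members between the other promoter classes and the non-promoter regions. Within 5 strata of region width the odds ratios were 1.81 (adjusted p = 4.89e-15), 2.97 (adjusted p = 5.26e-32) and 0.544 (adjusted p = 3.52e-07), in the same order, by the Mantel-Haenszel chi-square test. Counting from the list median of 19 instead, the last difference did not pass (odds ratio 0.713, adjusted p = 0.137, Fisher's exact test). Members with a base covered by all 3 ARIDs had a median score of 27, and those linked only through a chain had 23.5, values given as a description. The 1346 members lay under 1289 SNF5 peaks, 66 of which covered more than 1 member.

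**Figure D3:**
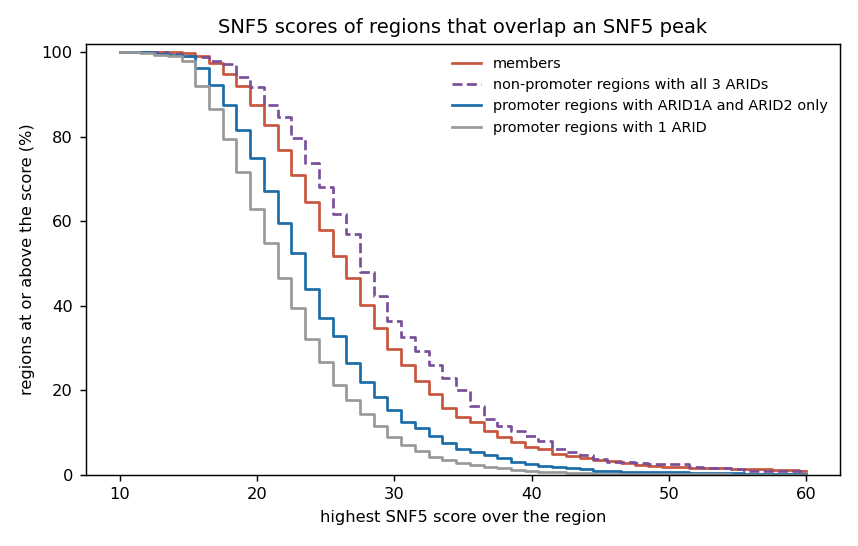
Percent of regions (vertical axis) whose highest SNF5 score is at or above the value on the horizontal axis, for the regions of 4 classes that overlap an SNF5 peak. At a score of 24 the lines stand at 64.7% for members, 73.8% for non-promoter regions with all 3 ARIDs, 43.9% for promoter regions with ARID1A and ARID2 only and 32.2% for those with 1 ARID.

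Several of the highest scores in the members lay at genes of repeated families. The member with the top score, 124, was a region of only 96 bp assigned to U2, a small nuclear RNA name, followed by neighbouring members at RP3-410C9.1 and MIR663A, which lay under a single SNF5 peak with a score of 106, KAT6A (82), a histone acetyltransferase gene, and the ribosomal RNA pseudogene RNA5-8SP6 (77). All 8 U1 names that had a promoter peak of any ARID also had a member, with SNF5 scores from 39 to 67 and shared stretches from 31 to 1572 bp. They lay on chromosomes 1 and 14. Of all gene names with such a peak 16.5% had a member, 11.8% on chromosome 1 and 27.5% on the 6 chromosomes described below, which include 14. U1, U2, U6 and ribosomal RNA genes and histone genes exist in many near-identical copies, and how reads that match several copies were placed is not given in the sources used here, so which copy was bound is uncertain. At the other end, 42 members had no SNF5 peak. They were narrow, with a median width of 432 bp, and those with the longest shared stretches were at AC008079.9 (200 bp), STK17A (181 bp), a kinase gene, OGFOD3 (177 bp), VPS33A (142 bp), which encodes a protein of lysosomal trafficking, and CTC-273B12.5 (122 bp).

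Most member promoters were CpG-rich. The 500 bp at a region's middle were called CpG-rich when GC content was at least 55% and the ratio of observed to expected CpG at least 0.65. This held for 1051 members (75.7%, 73.4 to 77.9), 78.4% (76.8 to 79.9) of regions with ARID1A and ARID2 only, 50.1% (49.1 to 51.1) of promoter regions with 1 ARID and 14.8% (12 to 18.2) of non-promoter regions with all 3. Promoter regions with ARID1B and 1 other ARID, which were not tested, stood at 59.4% (55.5 to 63.1). The difference of 2.69 points below the ARID1A and ARID2 class did not pass (odds ratio 0.859, 0.737 to 1.00; adjusted p = 0.0529, Fisher's exact test), although it did within strata of region width (odds ratio 0.793, adjusted p = 0.00803, Mantel-Haenszel chi-square test). It also passed with peaks up to 1000 bp apart joined (odds ratio 0.536, adjusted p = 6.99e-20, Fisher's exact test) and under 4 further settings, where the odds ratio lay between 0.669 and 0.817. Members were CpG-rich more often than promoter regions with 1 ARID (odds ratio 3.11, 2.73 to 3.53; adjusted p = 4.14e-75) and than non-promoter regions with all 3 (17.9, 13.6 to 23.5; adjusted p = 1.5e-132), by Fisher's exact test. The first of these fell to 1.82 within strata of width (adjusted p = 1.73e-12, Mantel-Haenszel chi-square test) and to 1.74 (adjusted p = 1.49e-20, Fisher's exact test) when peaks up to 1000 bp apart were joined. The second sets regions chosen for a promoter peak against regions chosen for having none. It therefore cannot tell a trait of members from one of promoters in general.

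Paired starts, where genes on opposite strands begin near each other, were counted next. Annotated starts on both strands were present within 1000 bp of the middle in 563 members (40.6%, 38.0 to 43.2), 40.2% (38.4 to 42.1) of the ARID1A and ARID2 class and 29.7% (28.8 to 30.6) of promoter regions with 1 ARID. Promoter regions with ARID1B and 1 other ARID, which were not tested, stood at 28.3% (24.9 to 31.9). The difference from the ARID1A and ARID2 class did not pass (odds ratio 1.02, 0.89 to 1.16; adjusted p = 0.84) and that from regions with 1 ARID did (1.62, 1.44 to 1.81; adjusted p = 2.08e-15, Fisher's exact test adjusted over 2 comparisons). The latter fell to 1.32 within strata of region width (adjusted p = 0.00115, Mantel-Haenszel chi-square test). It passed under every setting run, with odds ratios from 1.32 to 2.31, the highest in windows of 500 bp. More than 1 gene name was attached to 269 members, such as EIF2S1 and ATP6V1D, or CBX5 and HNRNPA1.

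Of the 14 motifs, counted in the 300 bp at the middle of each region, 1 differed between members and promoter regions with ARID1A and ARID2 only. The NRF1 letters (GCGCATGC) were found in 98 members (7.06%) and in 10.2% of the other class, against 4.13% of all promoter regions (odds ratio 0.666, 0.524 to 0.846; adjusted p = 0.0102, Fisher's exact test with Benjamini-Hochberg adjustment over 14 motifs). This difference did not pass in windows of 500 bp (adjusted p = 0.0695, Fisher's exact test), nor within strata of region width (adjusted p = 0.399) or within chromosomes (adjusted p = 0.0993) by the Mantel-Haenszel test. The GC box stood at 66.1% in members and 66.2% in the other class (odds ratio 0.995, 0.868 to 1.14). Letters of liver-enriched factors had shares of 3.46% and 2.14% for FOXA (TGTTTAC; odds ratio 1.64, 1.11 to 2.42; adjusted p = 0.0761), 7.85% and 5.86% for C/EBP (TTGCNNAA; 1.37, 1.06 to 1.76; adjusted p = 0.0761) and 1.73% and 1.11% for HNF4 (CAAAGTCC; 1.57, 0.917 to 2.70; adjusted p = 0.311), none of which passed Fisher's exact test after adjustment. The other 9 motifs had adjusted p between 0.15 and 1.

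Genes with a member more often had ARID peaks elsewhere. Of 1573 gene names at members, 581 (36.9%, 34.6 to 39.3) were also assigned an intron, exon or distal ARID peak outside the region, against 697 of 2617 names (26.6%, 25 to 28.4) with an ARID1A and ARID2 promoter region and no member (odds ratio 1.61, 1.41 to 1.84; p = 3.85e-12, two-sided Fisher's exact test). Gene lengths, known for 80.4% and 84.1% of the names, had medians of 30.2 and 32.2 kb, and within 5 strata of length the odds ratio was 1.78 (p = 4.15e-14, Mantel-Haenszel chi-square test). SEPT9, which encodes a septin, had 5 member regions, and PTMA, which encodes prothymosin alpha, had 4.

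The members were spread unevenly over the chromosomes. They made up 18.6% (95% Wilson interval 16.5 to 20.9) of the promoter regions with any ARID on chromosome 2, 16.6% on chromosome 6, 15.2% on chromosome 20, 13.6% on each of chromosomes 14 and 16, and 12.7% (11.0 to 14.7) on chromosome 17, whereas the other 16 autosomes ranged from 4.34% to 8.36%. Those 6 chromosomes, set apart after their values were seen and so not tested, held 801 members (57.7%) but 35.9% of the promoter regions with any ARID. The share on them was 38.1% (36.3 to 40) for promoter regions with ARID1A and ARID2 only, 31.8% for those with 1 ARID, 59.2% (54.9 to 63.3) for non-promoter regions with all 3, and 84.8% (78.5 to 89.5) for the 164 members with a shared stretch of 300 bp or more. Other measures moved with it when chromosomes were pooled. The same 6 had 95.1 promoter regions with any ARID per 100 protein-coding genes and 10.7 SNF5 peaks per Mb. All others, X and Y included, had 64.0 and 5.41. Taken singly, SNF5 peaks per Mb ran from 6.07 on chromosome 14 to 18.7 on chromosome 17, while chromosome 19, outside the 6, had 17.3. Members on the 6 chromosomes were wider (median 903 against 630 bp) and overlapped SNF5 in 99% against 94.2%. HepG2 is known to carry extra copies of several chromosomes, among them 2, 14, 16, 17 and 20. Copy number was not measured here, the input library was not analysed here, whether it served as the control in peak calling is not given in the sources used here, and the part of copy number in these shares was not tested. Without the 6 chromosomes members were 6.27% of promoter regions, and the odds ratios for SNF5 overlap against both promoter classes tested were 2.85 (adjusted p = 1.88e-09) and 15.0 (adjusted p = 4.64e-105) by Fisher's exact test.

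**Figure D4:**
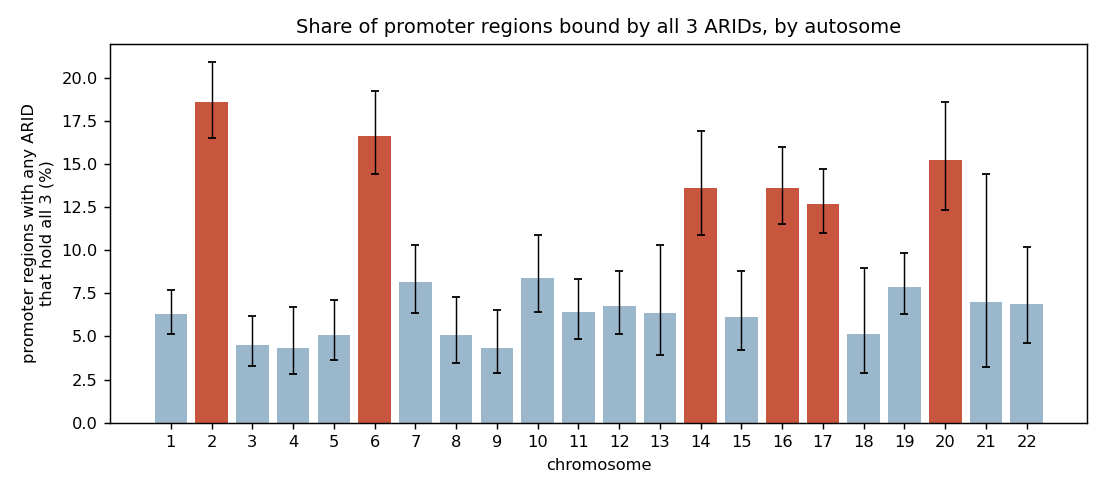
Percent of promoter regions with any ARID that held all 3 (vertical axis), for each autosome, with 95% Wilson intervals as error bars that cover counting of regions only. Red bars mark chromosomes 2, 6, 14, 16, 17 and 20, which stand between 12.7% and 18.6%, above all other autosomes.

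The genes at members were read by lists of pathway and family members. As the background, and as given at the start, 1573 of the 9526 gene names with a promoter peak of any ARID had a member, which is 16.5%, with 27.5% on the 6 chromosomes above and 10.8% on the others. Since lists differ in where their genes lie, the counts below are given with that split. No list was tested.

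Replication-dependent histone genes, which supply the core and linker histones of newly made chromatin, had the highest share: 37 of the 46 names with a promoter peak had a member (80.4%). In the HIST1 cluster on chromosome 6 this held for 29 of 33 names, where 29.4% of all names on that chromosome had a member, and in the HIST2 cluster on chromosome 1 for 8 of 12 names, where 11.8% of all names did. The 29 HIST1 names lay at 26 member regions, and the median of their longest shared stretches, taken over names, was 233 bp. HIST1H4E, an H4 gene (chr6:26204320-26206329), had the longest of them, 730 bp, in a region of 2010 bp with an SNF5 score of 31. A single region carried HIST2H2AA4 and HIST2H2BC, with a shared stretch of 517 bp, and another carried HIST1H2AC and HIST1H2BC, with 447 bp. Several histone genes are near-identical copies, so reads may have been divided among them.

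In the longer list of 15 hepatocyte transcription factor genes, 11 had a promoter peak and 5 had a member, 3 of 5 on the 6 chromosomes and 2 of 6 elsewhere. FOXA1, a pioneer factor that opens liver enhancers, had a member of 1162 bp (chr14:38064579-38065740) with an SNF5 score of 42 and a shared stretch of 456 bp. CEBPB had a shared stretch of 419 bp, FOXA2 one of 187 bp and the homeobox gene HHEX one of 130 bp, with SNF5 scores of 22, 23 and 21. At FOXA2 the ARID1A peak covered 1808 bp and the ARID1B peak 187 bp, so that ARID1B set the shared stretch. KLF and SP factor genes had a member in 5 of 11 cases, 2 of 3 on the 6 chromosomes and 3 of 8 elsewhere. Besides SP5 and KLF6 these were SP3, with 1 ARID1A peak of 1950 bp, 1 ARID1B peak of 234 bp and 3 ARID2 peaks, KLF16 and SP4. Of the AP-1 and early response genes 6 of 22 had a member, 3 of 4 on the 6 chromosomes and 3 of 18 elsewhere. IER3, an early response gene that modulates apoptosis, had a shared stretch of 283 bp, FOSL2, an AP-1 subunit, 234 bp, and DUSP1, a MAP kinase phosphatase, 130 bp.

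TGF-beta and SMAD pathway genes had a member in 8 of 19 cases, 4 of 4 on the 6 chromosomes and 4 of 15 elsewhere. ID1 was the widest member and SMAD3, a receptor-regulated SMAD, had a shared stretch of 192 bp in a region of 932 bp. BMPR2, a BMP receptor, and ID2, a relative of ID1, were members with no base covered by all 3. NRF2 oxidative stress genes had a member in 6 of 18 cases, 4 of 13 outside the 6 chromosomes. NFE2L2, which encodes NRF2 itself (chr2:178127961-178130210), had a shared stretch of 399 bp and an SNF5 score of 41, the quinone reductase gene NQO1 had 375 bp, PRDX1, a peroxiredoxin, 328 bp, and MAFK, a partner of NRF2 on DNA, 266 bp. Unfolded protein response genes had a member in 5 of 17 cases, 3 of 6 on the 6 chromosomes and 2 of 11 elsewhere, with TRIB3 at 129 bp and HERPUD1 at 60 bp. At ERN1, which encodes the sensor IRE1, all 3 ARIDs shared 3 bp, and at CANX, a chaperone of the endoplasmic reticulum, they shared none.

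Apolipoprotein and plasma protein genes had a member in 5 of 20 cases, 2 of 15 outside the 6 chromosomes. APOB, the structural protein of low-density lipoprotein (chr2:21265794-21267379), had 1 ARID1A, 2 ARID1B and 2 ARID2 peaks that shared at most 312 bp, under an SNF5 peak of 4361 bp with a score of 33. RBP4, the retinol carrier, shared 138 bp, FN1, fibronectin, 60 bp, and AHSG, fetuin-A, 31 bp with an SNF5 score of 42. Cholesterol and lipid synthesis genes had a member in 6 of 21 cases, 5 of 16 outside the 6 chromosomes. Their shared stretches were short, at most 52 bp at CYP51A1, a sterol demethylase, and 39 bp at SCAP, the escort of the sterol-regulated factor SREBP.

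Splicing factor genes had a member in 20 of 58 cases, 8 of 38 outside the 6 chromosomes, among them SNRPB with a shared stretch of 262 bp and HNRNPA1 with 197 bp. RNA polymerase II and Mediator genes had a member in 7 of 26 cases, 5 of 18 outside the 6 chromosomes, with POLR2A, the largest polymerase subunit, sharing 559 bp of a 784-bp region. Histone modifying enzyme genes had a member in 12 of 41 cases, 7 of 27 outside the 6 chromosomes, among them KDM3A, a histone demethylase, with 463 bp, and MLL, a methyltransferase, with 444 bp. Cytoplasmic ribosomal protein genes had a member in 7 of 71 cases (9.86%), 5 of 20 on the 6 chromosomes and 2 of 51 elsewhere, led by RPL19 with 179 bp. ZNF genes, which encode zinc finger proteins, had one in 21 of 225 cases (9.33%), 9 of 182 outside the 6 chromosomes, led by ZNF217 with 710 bp. Heat shock chaperone genes had a member in 10 of 58 cases, 9 of 16 on the 6 chromosomes and 1 of 42 elsewhere (2.38%). HSP90AB1, HSPD1, CCT4 and HSPA1A were among the 9. HSPA1A and its relatives are near-identical neighbours whose reads may be shared. Proteasome subunits had a member in 8 of 34 cases (23.5%), 7 of 21 on the 6 chromosomes but 1 of 13 elsewhere (7.69%). Translation initiation factors had one in 9 of 44 cases, 6 of 15 and 3 of 29. Mitochondrial ribosomal proteins had one in 8 of 53 cases, 5 of 19 and 3 of 34. Respiratory chain subunits had one in 9 of 55 cases, 4 of 13 and 5 of 42. Cyclins and CDK genes had one in 6 of 30 cases, 3 of 9 and 3 of 21. Replication licensing genes (2 of 18) and ubiquitin-conjugating enzymes (2 of 24) had 0 of 11 and 1 of 17 outside the 6 chromosomes.

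SWI/SNF subunit genes had a member in 4 of 18 cases (22.2%), 2 of 5 on the 6 chromosomes and 2 of 13 elsewhere. These were SMARCA4, the ATPase, with a shared stretch of 232 bp, SMARCD2 with 170 bp, DPF2 with 147 bp and PHF10, a PBAF subunit, with 141 bp. The genes of the 4 subunits mapped had none: ARID1A and SMARCB1 each had a promoter region with ARID1A and ARID2 only, ARID1B had 1 with ARID2 only, and ARID2 had 3, none with all 3 ARIDs. Small nuclear and nucleolar RNA names had a member in 16 of 51 cases, 7 of 29 outside the 6 chromosomes, and microRNA names in 17 of 70, 6 of 37 outside them, with the caution on repeated copies given above. Promoter peaks of any ARID were found at 0 olfactory receptor names, 0 of 16 blood cell genes, 1 keratin name and 4 of 20 neuronal genes. None of these had a member, and whether HepG2 expresses these genes was not measured here.

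**Figure D5:**
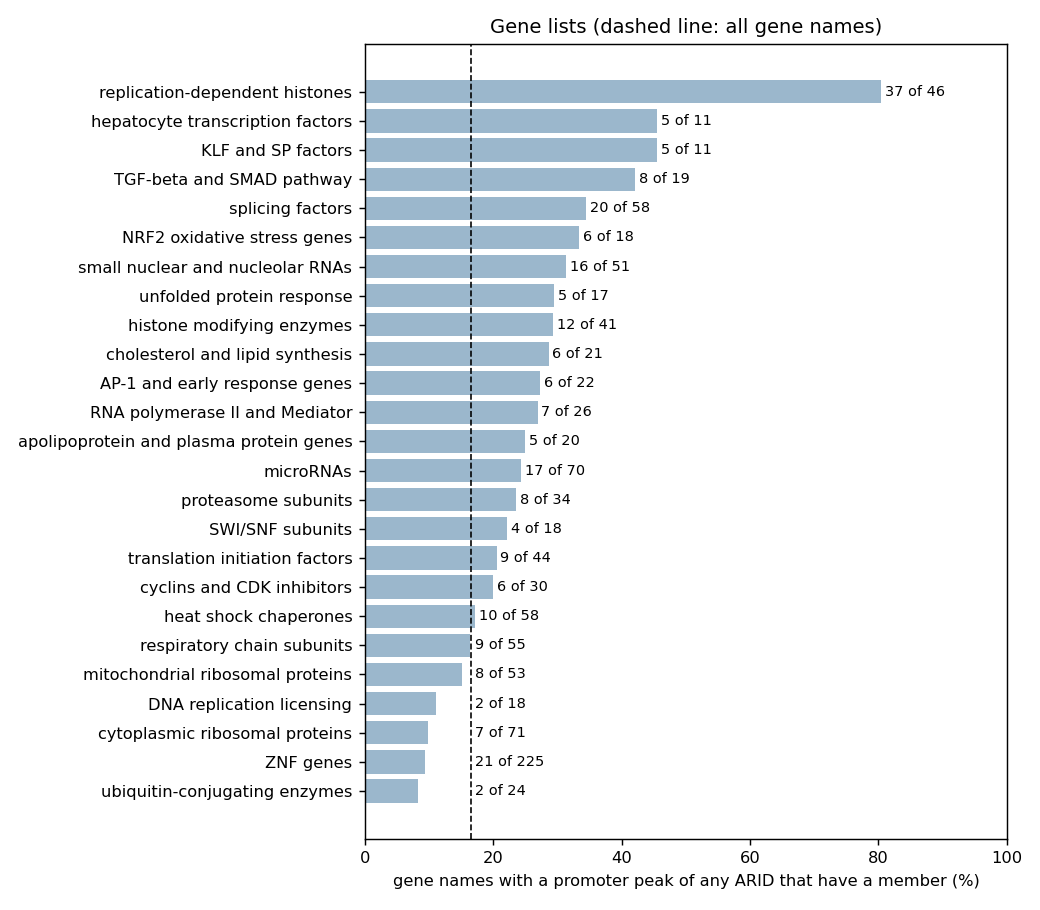
Percent of the gene names with a promoter peak of any ARID that had a member (horizontal axis), for each list with at least 10 such names, with the counts beside the bars. The dashed line marks the 16.5% of all gene names, and histone genes stand farthest above it at 80.4%.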

How the data were processed

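HepG2 chromatin was profiled by ChIP-seq in 9 libraries, 2 for each of 4 subunits and 1 input. Per the study's methods, the authors used bowtie2 and hg19 to map reads sequenced from 1 end, filtered duplicates, merged replicates, called broad peaks with MACS2, joined neighbouring peaks and removed blacklisted regions. They deposited peak positions and distances in bp for each ARID, with feature class, nearest gene and chromatin state, and for SNF5 a peak score, which only ranks peaks within that list. No read counts were used here, so depth is unknown and intervals cover counting of regions only.

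Peaks were pooled and joined with Python 3.11.15 (pandas 2.3.3, scipy 1.17.1, pysam 0.24.0). Sequence and starts came from GRCh37, the same assembly as hg19, and Gencode v44 lifted to it; file starts, counted from 0, are printed counted from 1. Shares carry 95% Wilson intervals. Odds ratios carry Wald intervals, Fisher's exact tests were two-sided, and stratified values are Mantel-Haenszel, with its chi-square test. The threshold was an adjusted p of 0.05. Scripts were tested on simulated data. Members, gene lists, motifs and tests were chosen with earlier results of these data known, and the SNF5 overlap and score by number of ARIDs were among those results. Named genes are those of the study's loci that were looked up, the 10 longest shared stretches, 5 highest SNF5 scores, 3 members with most peaks, up to 5 without SNF5, and up to 4 genes per list. The genes beside the promoter limit, those with several members, SP4, EIF2S1 with ATP6V1D and CBX5 were chosen after their values were seen. Chromosome strata and leaving out 6 chromosomes were added after seeing the data. The authors' label of single or multiple ARIDs, which read multiple on every peak of all 1388 members, was used for no result. Some genes that this rule names are not reported here.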

Additional observations from a re-analysis of the deposited data

How the results depend on the processing

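No paired analysis was possible because both replicates of each antibody were merged before peak calling, and for the same reason no replicate could be left out. Of 168 values recomputed for the comparisons under other settings, 141 kept their direction and side of the threshold, or for counts stayed within 1.5 times. The odds ratios of SNF5 overlap and high SNF5 score against both promoter classes tested, and of non-promoter peaks at the genes, kept theirs under every alternative run. The cause of the changes below was not tested.

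The number of members was 672 with the widest peaks of each list (those at or above its median width), and members were 6.27% of promoter regions without the 6 chromosomes. Against non-promoter regions with all 3 ARIDs, the odds ratio of SNF5 overlap was 0.47 with the widest peaks, 0.452 within chromosomes and 0.393 without the 6 chromosomes, and that of a score at or above the list median 0.713, none past the threshold. For CpG-rich sequence against ARID1A and ARID2 only, the test was passed at 0.536 with peaks up to 1000 bp apart joined, 0.785 with starts within 500 bp, 0.669 with the widest peaks, 0.793 within width strata, 0.817 in windows of 1000 bp and 0.805 at looser thresholds. For starts on both strands against the same class, the odds ratio crossed 1 without passing, at 0.998 (shared base required), 0.987 (joined), 0.925 (width strata), 0.973 (protein-coding starts) and 0.884 (without the 6 chromosomes). ARID1B lay downstream of ARID1A in 45.8% (shared base) and 47.7% (joined), both past the threshold. ARID2 lay downstream of ARID1A in 53.0% (joined) and 45.7% (1 peak of each), both past it, and downstream of ARID1B in 55% (joined, past it), 49.5% (1 peak of each) and 48.3% (without the 6 chromosomes).

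The number of motifs that differed was 0 in windows of 500 bp, within width strata and within chromosomes, against 1 in the report. Odds ratios near 1 changed side without passing: CCAAT 0.974 and YY1 1.01 at 500 bp, GC box 1.07 within GC strata and 1.02 within chromosomes, CRE 1.02 within chromosomes, and ETS 1.00, E-box 1.06 and YY1 1.01 within width strata. Depth is unknown, so a region without a called ARID1B peak cannot be read as unbound.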

Other observations

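Within the 6 chromosomes that held most members, the members were not spread evenly, as described by a division at 60 Mb chosen after the values were seen and not tested. On chromosome 14 they were 20.4% of the promoter regions with any ARID in the first 60 Mb and 5.65% past it. On chromosome 6 the shares were 20.7% and 10.8%. The opposite order was seen on chromosome 17, with 10.1% and 17.7%, while chromosome 16 had 13.7% and 13.6%.

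Several gene names had a group of separate members. MIDN and the neighbouring cold-inducible RNA-binding protein gene CIRBP each had 3 on chromosome 19, SPHK1, a sphingosine kinase gene, had 3 on chromosome 17, and SOD2, the mitochondrial superoxide dismutase gene, had 3 on chromosome 6.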
